A study of Mus musculus and Homo sapiens
Mus musculus with 12 samples.

Results

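Adarb2 nuclei of the mouse brain were chosen by measured values: a nucleus was selected when it held Adarb2 at 10 or more UFIs per 10000, Erbb4 at 5 or more per 10000, and Gad1 plus Gad2 at 1 or more per 10000. A UFI (unique fragment identifier) counts each captured cDNA fragment once, and levels are given here as UFIs per 10000 UFIs of the nucleus. The rule kept 622 of 11198 nuclei, or 5.55% (exact Clopper-Pearson 95% interval 5.137 to 5.995%; all intervals on shares cover counting error only). Adarb2 alone was at 10 or more in 1743 nuclei, 778 of which also passed for Erbb4, and the Gad1 and Gad2 threshold removed the rest. Because these 4 genes chose the nuclei, their levels are a description and were not tested.

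Adarb2 encodes a double-stranded RNA binding protein of the adenosine deaminase family that is not known to edit RNA, and in the cortex it is used as a marker of interneurons born in the caudal ganglionic eminence (CGE). These inhibitory cells include Vip interneurons, which mainly contact other interneurons, and Ndnf and Lamp5 neurogliaform cells, which release GABA broadly in the upper layers. Erbb4 encodes a neuregulin receptor, Gad1 and Gad2 encode the enzymes that make GABA, Kit encodes the stem cell factor receptor, and Cnr1 encodes the cannabinoid receptor that damps transmitter release. In GRCm38, Adarb2 lies at chr13:8202526-8768762, Erbb4 at chr1:68031884-69108576, Vip at chr10:5639193-5647617 and Ndnf at chr6:65671611-65712323. All are protein-coding, and UFIs over the whole gene body, introns included, were counted.

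The nuclei came from the brain of wild-type C57BL/6J male mice, profiled by snHH-seq, a droplet method that captures total RNA with random primers. The 7 libraries cross storage (nuclei from frozen or fresh tissue) with the reverse transcription primer (with or without a preindex, a cell barcode on the primer that adds to the droplet barcode): 2 frozen and not preindexed, 2 frozen and preindexed, 2 fresh and not preindexed, and 1 fresh and preindexed. In 4 of the 7 the sample's title disagrees with its treatment field on the primer. The title was followed here, and barcodes were 40 bases long in the libraries titled as indexed and 30 in the others. The animals behind each library are not given, so p-values measure the spread between libraries, which may be technical. The primer of the non-preindexed libraries is not shown here. The barcoded reverse transcription primers share a constant part, shown because the primer comparison below involves them. It is followed by a barcode of 10 bases, the preindex, and a priming part. The oligo list gives the priming part as 7 random bases and, for a second primer, as 20 T.
RT primer, constant part: ggagttggagtgagtggatgagtgatg

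Frozen non-preindexed libraries held 26 Adarb2 nuclei of 700 (3.71%, interval 2.44 to 5.40%) and 52 of 800 (6.50%, 4.89 to 8.44%). Frozen preindexed libraries held 122 of 2300 (5.30%) and 108 of 1998 (5.41%). Fresh non-preindexed libraries held 63 of 1000 (6.30%) and 80 of 1300 (6.15%), and the fresh preindexed library held 171 of 3100 (5.52%). The first frozen non-preindexed library was the lowest, and the other 6 lay between 5.30 and 6.50%. In the frozen preindexed libraries, kidney tubule genes summed to 9.14 and 8.60 per 10000 in nuclei outside the Adarb2 rule and the Lhx6 rule given below. In the other libraries that sum was at most 0.185. Nuclei outside both rules count in the denominators, and the part of the kidney genes in the share differences was not tested. The mean share was 5.23 ± 1.15% (SD, n = 4) in frozen libraries against 5.99% in the 3 fresh ones, a difference of -0.76 percentage points (exact permutation p = 0.371, two-sided, 35 splits, smallest possible p 0.0286). It was -0.253 points without the first and -1.18 points without the second frozen non-preindexed library (exact permutation p = 0.7 and 0.1, smallest possible 0.1). By primer the difference was -0.26 points (exact permutation p = 0.829), with -0.909 points without the first frozen non-preindexed library (exact permutation p = 0.1, the smallest possible), 0.0193 without the second, and 0.224 points for nuclei with Adarb2 at 50 or more per 10000. As a share of nuclei with Gad1 or Gad2, the difference between frozen and fresh libraries was -3.39 points (exact permutation p = 0.0571). The first frozen non-preindexed library was at 10.9%, the other 3 frozen ones at 15.5 to 16.6% and the fresh ones at 16.6 to 19.5%, and without that library the difference was -2.14 points (exact permutation p = 0.1, the smallest possible). Adarb2 nuclei had a median of 12021.5 UFIs and 3392 genes, against 12663 UFIs and 3439.5 genes in the other 10576 nuclei. Within libraries the Adarb2 nuclei had the lower median UFI count in 6 of 7, with 7050 against 9104 UFIs in the fresh preindexed library, and the higher one in the second fresh non-preindexed library, with 28596.5 against 27511. Summed UFIs of Adarb2 nuclei ranged from 259634 to 2691319 per library.

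**Figure D1:**
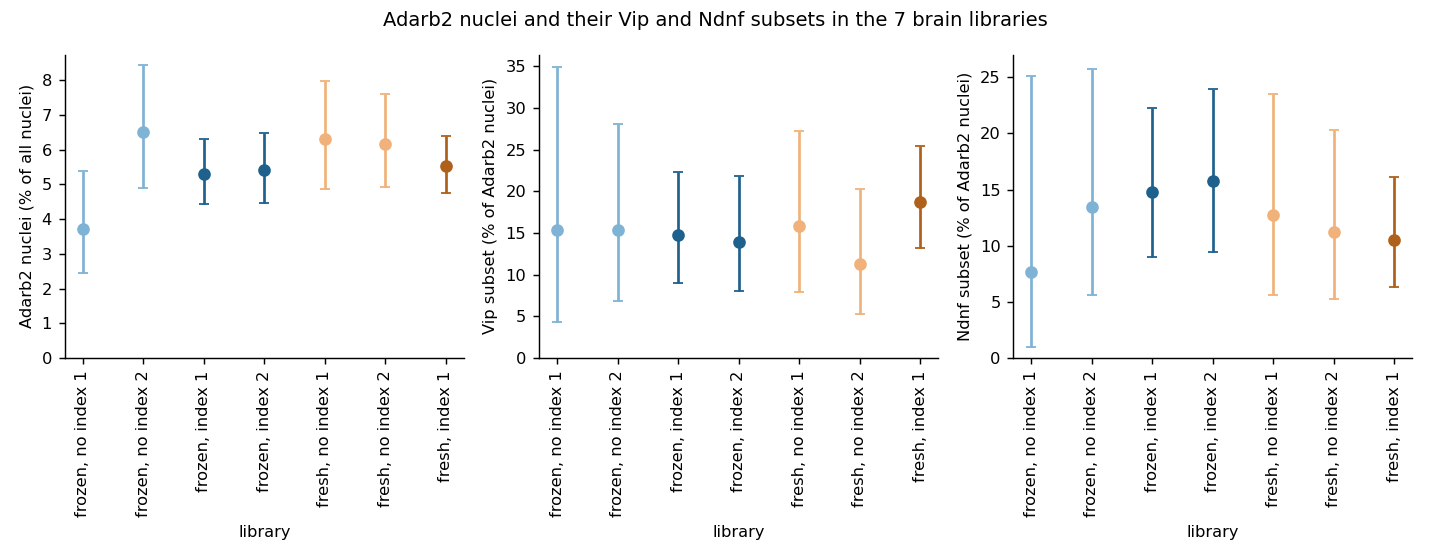
Share of nuclei that met the Adarb2 rule (left) and shares of Adarb2 nuclei in the Vip (middle) and Ndnf (right) subsets, in percent, for each of the 7 libraries ("index" means preindexed). Points are the shares and bars are exact 95% intervals. The first frozen library without preindex is lowest in the left panel at 3.71%, and the intervals of the Vip and Ndnf shares overlap across all libraries.

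Across the 622 nuclei, Adarb2 ran from 10.02 to 562 per 10000, with a median of 52.7, and Erbb4 from 5.03 to 249, with a median of 41.4. Just inside the Adarb2 threshold, 15 nuclei at 10 to 11 per 10000 had Kit at 0.311 and Meis2 at 7.67 per 10000. The 20 nuclei just outside, at 9 to 10, had Kit at 0.846 and Meis2 at 3.39. In 38 members the Gad1 plus Gad2 level rested on exactly 1 UFI. The 7 libraries shared few barcodes, with 32 barcodes in more than 1 library, 4 of them among the Adarb2 nuclei.

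Markers that the rule did not use show that the nuclei are not all CGE interneurons. Kit had a UFI in 42.4% of Adarb2 nuclei, against 20.5% of Lhx6 nuclei and 15.6% of Slc17a7 nuclei. Slc17a7 nuclei, which are excitatory, were chosen by Slc17a7 and by Gad1 plus Gad2 below 1 per 10000. Nuclei with more Gad1 or Gad2 RNA were thus left out, so they give only a limited measure of free RNA. Cnr1 had a UFI in 63.2% of Adarb2 nuclei and in 53.3% of Slc17a7 nuclei, so that its level separated the groups better than its detection: 4.60 per 10000 against 0.913. Prox1, a transcription factor of CGE interneurons that oligodendrocytes also express, was at 1.06 per 10000 in Adarb2 nuclei, 0.0444 in Lhx6 nuclei and 1.36 in oligodendrocyte nuclei. Htr3a, the ionotropic serotonin receptor subunit of these cells, had a UFI in 11.4% of Adarb2 nuclei and 0.338% of Slc17a7 nuclei. Lists of other cell types were measured too. Summed over its 8 genes, the striatal projection neuron list was at 20.9 per 10000, led by Pde10a at 15.9, against 22.7 in nuclei that met neither the Adarb2 nor the Lhx6 rule and 17.2 in Lhx6 nuclei. The 6-gene olfactory bulb list was at 11.97, led by Meis2 at 5.15, against 5.94 in the nuclei of neither rule and 1.52 in Lhx6 nuclei. The oligodendrocyte list summed to 1.13 and the OPC (oligodendrocyte precursor) list to 0.976, against 1.74 and 0.339 in the nuclei of neither rule.

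Clustering split the 622 nuclei into 14 groups, and 11 to 14 groups came out over 10 random seeds. The clusters and their leading genes describe these nuclei and carry no test. Interneuron-like clusters, 5 in number, held 236 nuclei, or 37.9% (34.1 to 41.9%). The Vip-like cluster had 90 nuclei, led by Vip, Wnt5b and Zfp804a, with 8 of 9 Vip interneuron markers at 2-fold or more over the other clusters. Clusters of 94 and 10 nuclei were Ndnf and Lamp5-like. The larger was led by Npy, Egfr and Pde11a and held Kit at 11.6 per 10000, and the smaller was led by Ndnf and Ltbp1 and held Reln among its leading genes. A CGE interneuron-like cluster of 21 nuclei was led by Htr3a and Cadps2. Another 21 nuclei, led by Slc17a8, which encodes a vesicular glutamate transporter, with Cnr1 and Cck, were Sncg and Cck-like (both clusters of 21 met the criteria for both lists), and Adarb2 was highest there at 255 per 10000. That name is only the name of the list. Sncg itself was at 0 per 10000 in this cluster and had a UFI in 5 of the 622 Adarb2 nuclei.

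Another 4 clusters with 146 nuclei, or 23.5% (20.2 to 27.01%), were led by genes of other cell types. Clusters of 55 and 28 nuclei were striatal projection-like, led by Rgs9 and Drd3 in the first and with Rxrg and Foxp2 among the leading genes of the second. A cluster of 41 was excitatory-like, led by Sv2b and Slc17a7, and one of 22 was OPC-like, led by Gpr17, Bcas1 and Pdgfra, with astrocyte and oligodendrocyte list genes raised as well. The remaining 240 nuclei, in 5 clusters, were left unnamed. The largest of these had 117 nuclei and was led by Zfhx3 and Rmst, with genes of the oligodendrocyte list raised as well. A cluster of 50 led by Gm44905 held Sox6 and Satb1, and a cluster of 24 led by Cpa6 held Meis2 at 34.7 per 10000. Adarb2 averaged 90.9 to 255 per 10000 in the interneuron-like clusters, 22.1 to 46.3 in the clusters of other cell types and 28.9 to 138.9 in the unnamed clusters, a range that overlaps both, and it is a gene of the rule. The label of Adarb2 interneurons therefore covers only some of the nuclei that the rule caught, and they are called Adarb2 nuclei here. Doublets were not removed, and their part was not tested.

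**Figure D2:**
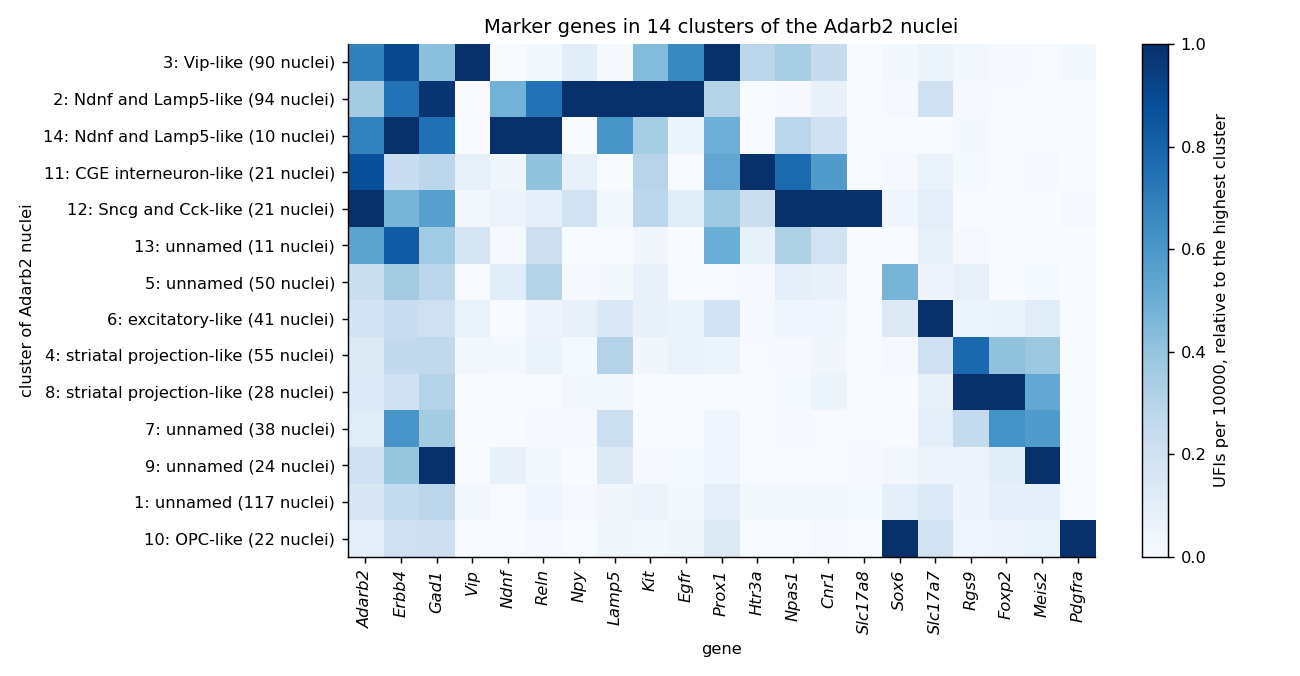
Marker genes (columns) in the 14 clusters of the 622 Adarb2 nuclei (rows, with the number of nuclei). Colour gives UFIs per 10000 in the cluster divided by the gene's value in its highest cluster, from 0 to 1. Adarb2 is darkest in the Sncg and Cck-like cluster (named for the list, with Sncg itself at 0) and pale in the 4 clusters named for other cell types.

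Adarb2 level and identity moved together between the lowest and the highest level, though not evenly in between. Of the 122 nuclei at 10 to 20 per 10000, 97.5% held neither Vip nor Ndnf at 1 per 10000, and the summed CGE list was at 4.22. At 100 or more per 10000, 46.4% of 183 nuclei held neither, and the CGE list was at 31.5. Meis2, a homeobox factor of striatal and olfactory bulb lineages, went the other way, from 8.11 to 1.13 per 10000 between these bins, with 9.22 at 20 to 50. Nuclei with Ndnf at 1 per 10000 made up 1.64% at 10 to 20, 5.00% at 20 to 50, 31.4% at 50 to 100 and 13.7% at 100 or more. Those with Vip at 1 per 10000 made up 0.820, 4.44, 10.2 and 39.9% in the same order. Among the 85 nuclei with Adarb2 at 100 or more and neither Vip nor Ndnf at 1 per 10000, Cnr1 was at 14.9 and Npas1 at 1.06 per 10000. The bins were cut on a gene that the rule used, so this is a description of the range.

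Within the Adarb2 nuclei, the Vip subset (Vip at 1 or more per 10000, Ndnf below 1) had 96 nuclei, or 15.4% (12.7 to 18.5%). The Ndnf subset, defined the other way round, had 79, or 12.7% (10.2 to 15.6%). Vip encodes vasoactive intestinal peptide and Ndnf a secreted neurotrophic factor. No nucleus met both thresholds, 0 of 622, which by the limit of 3 counts, not the exact interval used above, allows a share of up to 0.482% of nuclei meeting both, and no nucleus held even 1 UFI of each. The remaining 447 reached neither threshold, although 5 of them held a Vip UFI and 13 an Ndnf UFI. In the Vip subset the median Vip level was 6.48 and the highest was 29.8 per 10000, and in the Ndnf subset the median Ndnf level was 6.24 and the highest 18.3. A Vip UFI was found in 0.531% and an Ndnf UFI in 2.94% of 2072 Slc17a7 nuclei, whose median depth was 14697.5 UFIs. Either gene was thus rare in these nuclei. They were chosen with Gad1 plus Gad2 below 1 per 10000, so these shares may understate free RNA.

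The Vip subset was 15.4% of Adarb2 nuclei in both frozen non-preindexed libraries (4 and 8 nuclei). It was 14.8 and 13.9% in the frozen preindexed libraries (18 and 15 nuclei), 15.9 and 11.3% in the fresh non-preindexed ones (10 and 9 nuclei), and 18.7% in the fresh preindexed library (32 nuclei). Frozen and fresh libraries differed by -0.43 percentage points (exact permutation p = 0.771) and the primers by 1.31 points (exact permutation p = 0.571). The storage difference was -2.44 points without the second fresh non-preindexed library (exact permutation p = 0.0667, the smallest possible) and 1.29 points without the fresh preindexed one, and the primer difference was 0.238 and -0.152 points without these same libraries and at most 2.26 points, without the second frozen preindexed one. The Ndnf share ran from 7.69% (2 nuclei) to 15.7% (17 nuclei), both in frozen libraries, with differences of 1.42 points by storage (exact permutation p = 0.571) and 2.40 points by primer (exact permutation p = 0.286). With nuclei thinned to 5000 UFIs and any Ndnf UFI counted, the differences were 0.0262 points by storage and 1.25 points by primer. With 1 library left out the storage difference ran from 0.478 points (without the second frozen preindexed library) to 3.16 points (without the first frozen non-preindexed library; exact permutation p = 0.1, the smallest possible), and the primer difference from 1.20 points (without that same library) to 3.97 points (without the fresh preindexed library). Each library gave 2 to 32 nuclei per subset.

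The next comparison asked which other genes separate the Vip from the Ndnf subset. UFIs were summed per library and subset in the 6 libraries with 3 or more nuclei in both, and tested with edgeR with library as a term. Of 3196 genes, 508 (15.9%) passed an adjusted p of 0.05: 260 (8.14%) were higher in the Vip subset and 248 (7.76%) in the Ndnf subset. The median log2 difference over all genes tested was -0.002. Values below are TMM-scaled CPM, counts normalised to the library sum.

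Of the 10-gene CGE interneuron list 5 genes could be tested between the subsets, 4 of which (Cnr1, Cxcl14, Prox1 and Synpr) were higher in the Vip subset and 1 did not pass. Of the 5 not tested, Nr2f1 was at 0.0969 per 10000 in the Vip and 0.221 in the Ndnf subset, and Nr2f2 at 0.443 and 0.425. In the same order Htr3a was at 0.823 and 0.0394, Egln3 at 0.201 and 0.102, and Sp8 at 0.0623 and 0.0473. Synpr, a synaptic vesicle protein, was at 1811 CPM in the frozen non-preindexed library, 3030 and 2140 in the frozen preindexed libraries, 2561 and 1450 in the fresh non-preindexed libraries and 2503 in the fresh preindexed library. In the Ndnf subset of the same libraries it was at 61.4, 210, 79.9, 539, 242 and 92.6 CPM. Every Vip sum lay above every Ndnf sum, 12.8-fold on the fitted scale (log2 3.68 ± 0.34 SE, adjusted p = 6.84e-06, edgeR). Prox1 was 420 ± 93.7 against 118 ± 49.2 CPM (SD, n = 6; log2 1.79, adjusted p = 0.000347, edgeR), and Cnr1 and the chemokine gene Cxcl14 also rose, by 0.81 and 1.41 log2 units. Penk, which encodes the enkephalin precursor, was the 1 gene tested of the Vip interneuron list besides Vip, and was higher by 2.59 log2 units. Among the other genes with the largest differences were Sema5b, a semaphorin, at 278 ± 124 against 6.12 ± 5.56 CPM, Elfn1, a postsynaptic adhesion protein that shapes inputs onto interneurons, at 516 ± 138 against 24.9 ± 23.2, and Wnt5b, a secreted Wnt ligand, at 240 ± 96.7 against 15.9 ± 18.03. Plpp4, Nckap5, Gm20754 and Rnf144b made up the rest of this set, with log2 differences of 3.15 to 3.31.

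Of the 9 genes in the Ndnf and Lamp5 list 5 could be tested, and these 5, Kit, Lamp5, Npy, Reln and Sv2c, were higher in the Ndnf subset. A gene near 0 in one subset passes the filter on low counts only through the other, so a count over the tested genes of a marker list, here and against Lhx6 nuclei below, is a description and not support for the list. Reln, the secreted glycoprotein of layer 1, was at 16.4 to 398 CPM over the 6 Vip sums and at 2760 to 3774 CPM over the 6 Ndnf sums (log2 -4.45 ± 0.36 SE, adjusted p = 2.02e-06, edgeR). Lamp5, a lysosome-associated membrane protein, was absent from 4 of the 6 Vip sums and at 71.2 to 216 CPM in the Ndnf sums. Nxph1, a ligand of neurexins, was at 205 ± 241 against 3614 ± 1504 CPM, lower in the Vip subset in every library. Mpped1, Myo3b, Ptprm, a receptor tyrosine phosphatase, and Tox3 differed by -4.34, -4.18, -3.96 and -3.45 log2 units. Kit, used to mark both subsets, was lower in the Vip subset in all 6 libraries, at 547 ± 253 against 1000 ± 196 CPM (log2 -0.99, adjusted p = 0.0303, edgeR), and the groups overlapped. Npy was called lower in the Vip subset (log2 -2.03, adjusted p = 0.0386, edgeR), although it was higher there in 2 of 6 libraries.

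**Figure D3:**
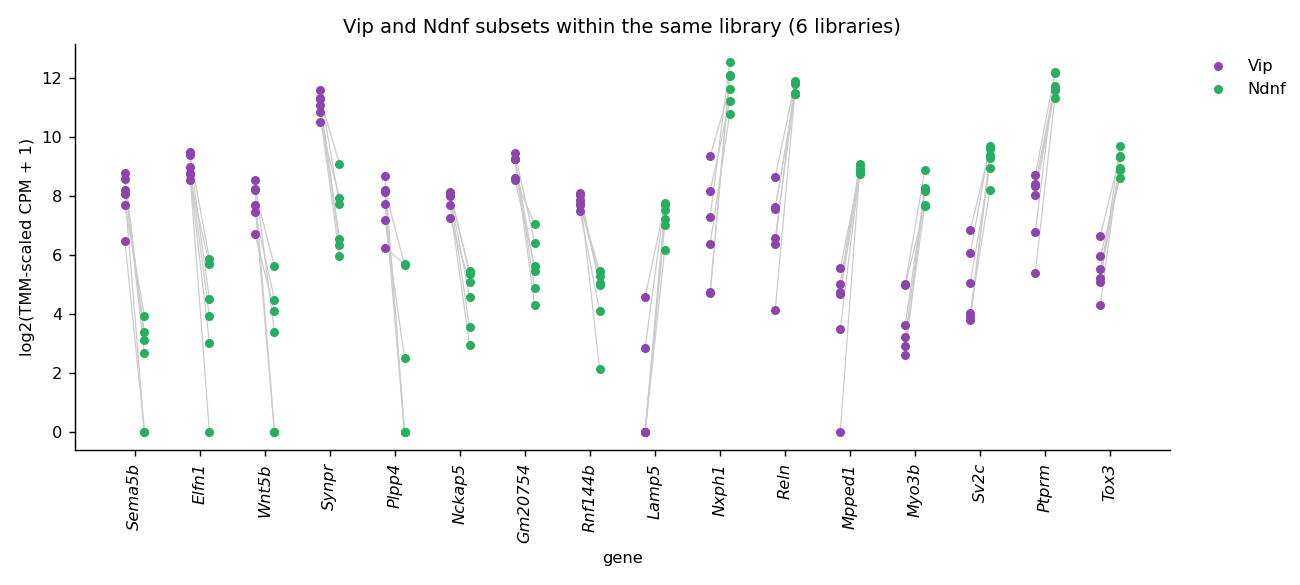
TMM-scaled CPM of 16 genes, as log2(CPM + 1), in the Vip (purple) and Ndnf (green) subsets. Each point is the sum of 1 library and lines join the 2 subsets of 1 of 6 libraries. The 8 genes at left are higher in the Vip subset and the 8 at right lower, in every library.

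Receptor and channel genes are given by family, to be read against the 15.9% of all genes called. Of 7 tested genes for serotonin and acetylcholine receptors, Htr2c, Htr4 and Chrm3 were higher in the Vip subset and Htr2a and Chrna7 in the Ndnf subset. Htr2a, the Gq-coupled serotonin 2A receptor, was at 8.65 to 56.2 CPM in the Vip sums and 167 to 242 CPM in the Ndnf sums (log2 -2.71, adjusted p = 1.73e-05, edgeR). Htr4, which couples to Gs, went the other way, at 118 ± 33.9 against 21.7 ± 11.7 CPM. Of 14 ionotropic glutamate receptor genes tested, Grik4 and Grin2b were higher in the Vip subset and Gria3, Gria4, Grik1, Grin2a and Grin3a in the Ndnf subset. Grik1, a kainate receptor subunit, was at 1006 ± 252 against 3242 ± 742 CPM, and Grin2a, an NMDA receptor subunit, at 1083 ± 161 against 3374 ± 978, both lower in the Vip subset in every library. Grin2b was at 3301 ± 321 against 2160 ± 181 CPM. Of 9 GABA-A receptor genes, Gabra4 and Gabrb2 were lower in the Vip subset and 7 did not pass. Of 13 voltage-gated potassium channel genes 10 did not pass, and those that passed included Kcnb2, higher in the Vip subset, and Kcnh7, lower there. Of the 4 tested genes of the neuregulin and ErbB list only Nrg1 passed, at 1145 ± 715 against 2304 ± 657 CPM. Egfr was at 669 ± 113 against 960 ± 212 CPM and did not pass (adjusted p = 0.0639, edgeR), although the Ndnf value was the higher in all 6 libraries. Of the GABA neuron list, Slc32a1, the vesicular GABA transporter, and Dlx6os1 did not pass. None of the 4 nuclear RNAs tested passed in edgeR, where Malat1 and Meg3 were higher in the Vip subset in 6 of 6 libraries at log2 0.35 and 0.32. Of the striatal and olfactory bulb lists 2 genes each were tested. Bcl11b of the first and Tshz1 of the second were lower in the Vip subset, and 1 gene of each did not pass. In the oligodendrocyte, OPC, astrocyte, microglia and endothelial lists no gene passed the filter on low counts. Their sums were 0.187, 0.235, 0.706, 0.152 and 0.125 per 10000 in the Vip subset and 0.417, 1.10, 0.291, 0.079 and 0.260 in the Ndnf subset.

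Lhx6 nuclei, taken as the most similar other interneurons, had Lhx6 at 2 or more and Gad1 plus Gad2 at 1 or more per 10000 and did not meet the Adarb2 rule. Lhx6 encodes a transcription factor of interneurons from the medial ganglionic eminence (MGE). There were 73 of them, from 2 to 33 per library, and 3 libraries had fewer than 5. Of 4197 genes, 297 (7.08%) passed in the edgeR fit with library as a term. Adarb2 nuclei were higher for 175 (4.17%) and Lhx6 nuclei for 122 (2.91%), with a median of -0.002 over all genes.

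Of the 11 MGE list genes 6 were tested, and all 6 (Elfn1, Grin3a, Nos1, Nxph1, Satb1 and Sox6) were lower in Adarb2 nuclei, with a list median of -2.27. Sox6, a transcription factor of MGE interneurons, was at 35.5 and 239 CPM in the Adarb2 nuclei of the frozen non-preindexed libraries, 319 and 396 in the frozen preindexed, 191 and 218 in the fresh non-preindexed and 159 in the fresh preindexed. The Lhx6 nuclei had 567.8 and 1452, 1921 and 1440, 1932 and 1678, and 1603 CPM, and the groups did not overlap (log2 -2.86 ± 0.23 SE, adjusted p = 3.59e-06, edgeR). Grin3a, an NMDA receptor subunit, was at 169 ± 28.3 against 655 ± 135 CPM. Oprd1, the delta opioid receptor, was at 12.7 ± 4.84 against 129 ± 70.6 CPM, and Lypd6b, Lypd6, Tmem132c, Tmem44 and Cemip were lower by 1.91 to 2.54 log2 units in Adarb2 nuclei. Against the 8 nuclei with Lhx6 at 4 or more per 10000 none of these 5 passed in edgeR, and Lypd6b and Lypd6 turned, to log2 0.96 and 0.56. Nos1 was lower by 2.61 on the fitted scale but higher in Adarb2 nuclei in 3 of 7 libraries.

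Of the CGE list 2 of 3 tested genes, Cnr1 and Prox1, were higher in Adarb2 nuclei and 1 did not pass. Of the Ndnf and Lamp5 list, 3 of 5 tested (Kit, Ndnf and Sv2c) were higher, Npy was lower (log2 -1.35, adjusted p = 0.0432, edgeR) and 1 did not pass. Vip was at 71.6 to 226 CPM in Adarb2 nuclei and had no UFI in the 900469 UFIs of Lhx6 nuclei. With 3 UFIs over that group as the limit, it was at least 29.8-fold higher. Prox1 was at 94.8 to 172 CPM in Adarb2 nuclei and at 0 in 6 of 7 libraries of Lhx6 nuclei, with 32.0 CPM in the other (log2 4.51 ± 0.58 SE, adjusted p = 0.000173, edgeR). Egfr, the epidermal growth factor receptor, was at 318 ± 58.3 against 33.2 ± 72.1 CPM. Kcnq5, an M-type potassium channel, was at 1509 to 2352 CPM in Adarb2 nuclei and 208 to 795 CPM in Lhx6 nuclei (log2 2.57 ± 0.21 SE, adjusted p = 3.59e-06, edgeR). Kcnc2, a fast channel of the Kv3 family, was lower in Adarb2 nuclei in every library, at 689 ± 170 against 1868 ± 856 CPM. Rgs12, a regulator of G protein signalling, the tyrosine kinase gene Ptk2b and Sema5b were higher by 3.77, 3.60 and 4.34 log2 units. Rgs12, Ptk2b, Grin3a and Vip were weaker in at least 1 alternative way of processing. Gria1 and Grik3 were lower by 1.34 and 1.47 log2 units, and 11 of 14 ionotropic glutamate receptor genes did not pass.

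Lists of other lineages are given against the 7.08% of all genes called, 4.17% higher in Adarb2 nuclei. All 3 tested genes of the 6-gene olfactory bulb list, Meis2, Pbx3 and Tshz1, were higher, at log2 3.82, 3.22 and 2.42, and Foxp2, a transcription factor of striatal projection neurons, was at 288 to 793 against 0 to 60.9 CPM (log2 4.38, adjusted p = 3.59e-06, edgeR). Of the 8-gene striatal list 3 genes were tested, of which Rgs9 was higher and 2 did not pass, and Camk2a, the 1 gene tested of 8 in the excitatory list, was higher. Of the oligodendrocyte and OPC lists 1 gene each was tested, and neither passed. The oligodendrocyte list summed to 1.13 per 10000 in Adarb2 and 0.344 in Lhx6 nuclei, the OPC list to 0.976 and 0.333, the astrocyte list to 0.511 and 0.111, the microglia list to 0.152 and 0.100 and the endothelial list to 0.274 and 0.866. Single Lhx6 sums stood apart, at 7.15 for the oligodendrocyte list in the first frozen non-preindexed library and 6.05 for the endothelial list in the first frozen preindexed library, and the part of these lists in the comparison was not tested. Meis2 was at 13.2 and 18.3 per 10000 in the striatal projection-like clusters and 34.7 in the Cpa6 cluster, but at 0.156 in the Vip-like cluster. Among the 320 nuclei with Adarb2 at 50 or more per 10000 Foxp2 and Pbx3 were still called at log2 3.11 and 2.63. That group gave 307 calls, 173 of them higher in Adarb2 nuclei. Without the fresh preindexed library, which holds 33 of the 73 Lhx6 nuclei, 172 genes passed, and without the second frozen preindexed library 194.

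**Figure D4:**
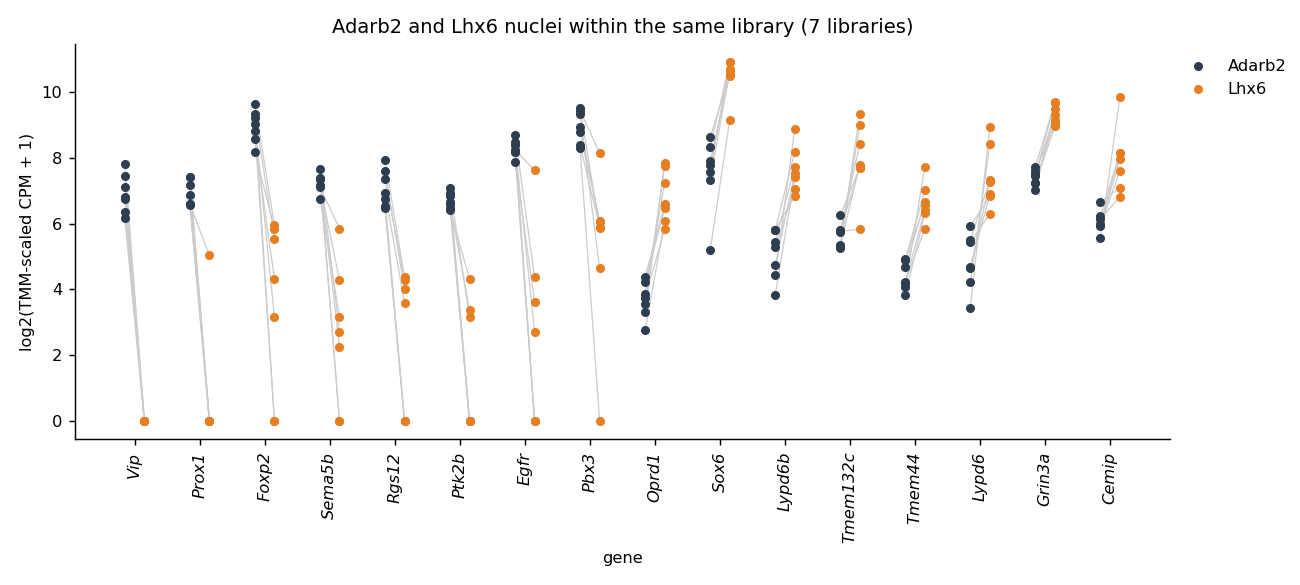
TMM-scaled CPM of 16 genes, as log2(CPM + 1), in Adarb2 (dark) and Lhx6 (orange) nuclei. Each point is the sum of 1 library and lines join the 2 classes of 1 of 7 libraries. Vip is at 0 in all Lhx6 sums, and Sox6 is lower in the Adarb2 sum of every library.

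Storage was tested over the 7 library sums of Adarb2 nuclei with storage and primer as terms. Of 10793 genes, 2 (0.0185%) passed, both higher in fresh libraries (0.0185%), and 0 (0%) passed in the other direction in edgeR. At an unadjusted p below 0.05 there were 625 genes, and DESeq2 called 9, 4 of them higher in frozen libraries. Because both genes fell outside the rule for named genes, they were named after their values were seen. Cpa6, a carboxypeptidase gene, was at 0 and 0 unscaled CPM (its UFIs relative to all UFIs of the same nuclei and library, without TMM scaling) in the frozen non-preindexed libraries, 4.37 and 5.71 in the frozen preindexed, 28.1 and 61.7 in the fresh non-preindexed and 101 in the fresh preindexed library (log2 -4.63 ± 0.41 SE, adjusted p = 0.000336, edgeR). Frozen and fresh libraries did not overlap. Among nuclei with Adarb2 at 50 or more per 10000 Cpa6 did not pass (log2 -2.62, adjusted p = 0.642, edgeR), at 0 to 7.38 unscaled CPM in frozen and 1.23 to 37.5 in fresh libraries, which overlapped, and without the fresh preindexed library the fitted log2 was -8.97. The unnamed cluster led by Cpa6 and rich in Meis2 had 0, 0, 1 and 1 nuclei in the frozen libraries and 2, 6 and 14 in the fresh ones. In sums, fewer such nuclei and less Cpa6 RNA in each nucleus cannot be told apart. Outside the Adarb2 nuclei Cpa6 was at 10.1 to 17.7 in frozen and 17.6 to 21.3 unscaled CPM in fresh libraries. The second gene, Gm24265, differed by -1.15 log2 units, and its groups overlapped. No tested gene of any marker or function list passed by storage in edgeR. The list medians, as log2 of frozen over fresh, were -0.28 for 8 GABA neuron, -0.52 for 9 CGE and -0.36 for 8 Vip interneuron genes. They were -0.66 for 5 Sncg and Cck, 0.04 for 7 Ndnf and Lamp5, 0.19 for 10 MGE and -0.62 for 4 olfactory bulb genes. For glial and endothelial lists they were 1.35 for 6 oligodendrocyte, 0.89 for 4 OPC (oligodendrocyte precursor), 0.86 for 3 astrocyte, 1.14 for 3 microglia and -0.78 for 3 endothelial genes. Over all genes the median was 0, and the part of these lists in the storage result was not tested.

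Between primers, 28 genes (0.259%) passed, 8 (0.0741%) higher in preindexed and 20 (0.185%) higher in non-preindexed libraries. The count was 6 without the second frozen and 44 without the second fresh non-preindexed library, and DESeq2 called 56, of which 33 were higher in preindexed libraries. Lars2, which encodes mitochondrial leucyl-tRNA synthetase, was at 5369 and 5252 unscaled CPM in the frozen non-preindexed libraries and 4350 and 4619 in the fresh ones. It was at 2152 and 2269 in the frozen preindexed libraries and at 1974 in the fresh preindexed library, a clear gap between the primers (log2 -1.14 ± 0.11 SE, adjusted p = 0.000412, edgeR). The same held for the unannotated gene Gm15564, at 169 to 256 against 59.0 to 64.0, the ribosomal RNA copy Rn18s-rs5, at 57.8 to 77.3 against 24.7 to 32.3, and Rn7sk, the 7SK small nuclear RNA, at 1024 to 1113 against 429 to 612 unscaled CPM. Lars2, Gm15564, Gm24601 and Rn18s-rs5 can share reads with near-identical copies or repeats, so their levels are uncertain. Cd44, a hyaluronan receptor, was at 88.6 to 124 against 5.62 to 25.4. Higher in preindexed libraries were Pard3b, a polarity protein (126 to 182 against 44.5 to 75.4), Ankfn1, Gm22513, Zfp804b and the potassium channel gene Kcnc2, with log2 differences of 0.68 to 1.30. Each of these was weaker in at least 1 alternative way of processing, as were Rn18s-rs5 and Gm24601, and none reversed.

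In the nuclei outside the Adarb2 set, which come from the same 7 libraries, the 28 genes had the same direction as in Adarb2 nuclei, against 64.3% of all genes tested, and for 21 of them the primers did not overlap, against 34.5% of all genes tested. Lars2 was there at 4817 ± 984 against 1874 ± 55.6 unscaled CPM (SD, n = 4 and 3). Kcnc2, Zfp804b, Ankfn1, Pard3b, Sv2b, Sulf1 and Gm24265 were the 7 that overlapped. Cbln3, a cerebellin family gene, had 35 UFIs in non-preindexed and none in the 4372121 UFIs of preindexed Adarb2 nuclei, at least 9.64-fold higher with 3 UFIs over the group as the limit. It was at 7.70 and 17.2 unscaled CPM in the frozen and 3.69 and 4.09 in the fresh non-preindexed libraries. The bound therefore rests in large part on the second frozen one and is lower without it. Outside the Adarb2 set Cbln3 was at 15.5 to 37.3 unscaled CPM in non-preindexed and 0.0401 to 0.130 in preindexed libraries. Gabra6, a GABA-A receptor subunit gene chosen after the values of Cbln3 were seen, was at 4.92 to 16.1 unscaled CPM in the other nuclei of the non-preindexed libraries and at 0 to 0.0651 in those of the preindexed ones. In the other nuclei Fat2, also called by primer, was at 35.1 to 89.1 unscaled CPM without preindex and 0.281 to 0.717 with it. The brain regions taken for each library are not given, and their part in the primer differences was not tested.

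**Figure D5:**
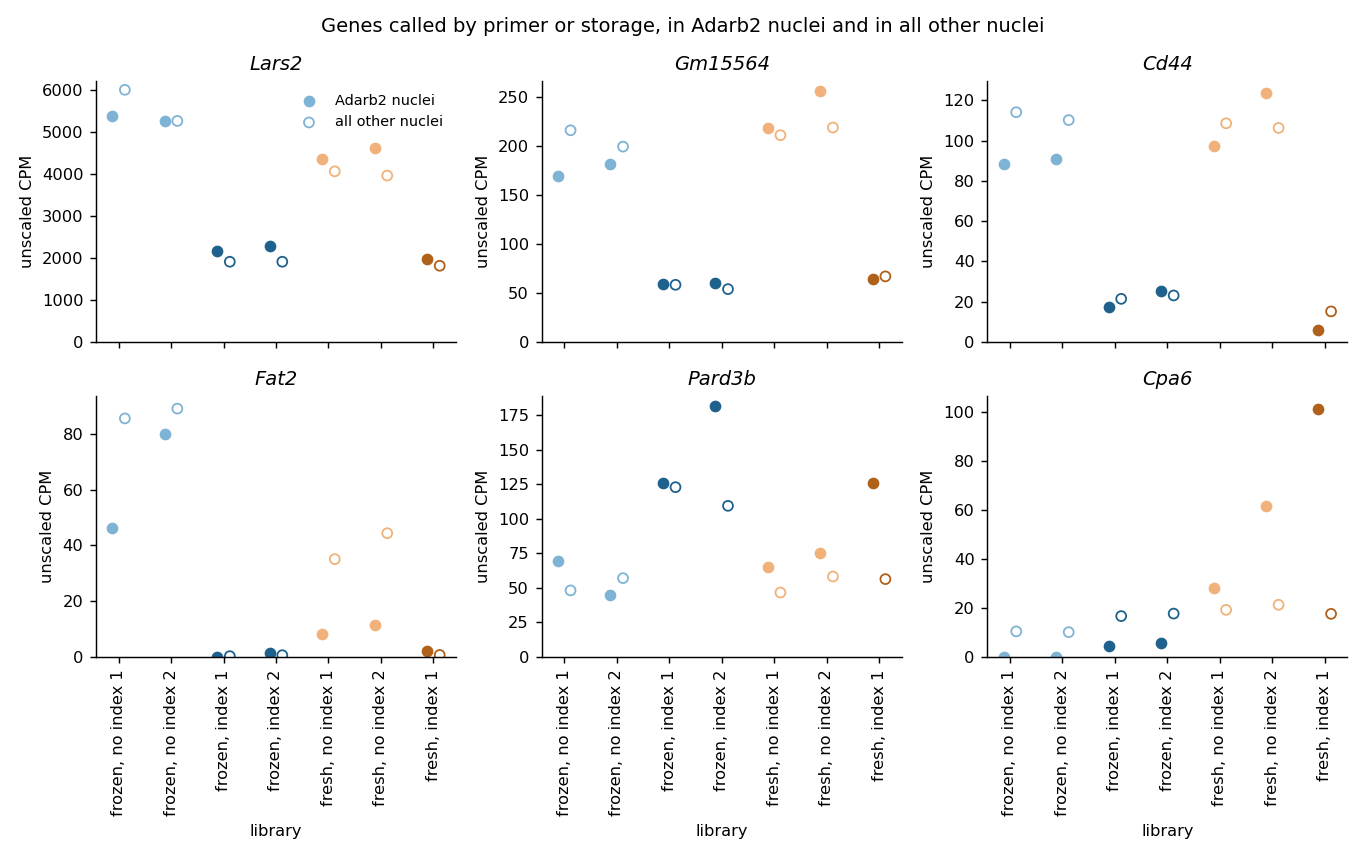
unscaled CPM of 6 genes called by primer (Lars2, Gm15564, Cd44, Fat2, Pard3b) or by storage (Cpa6), in Adarb2 nuclei (filled) and in all other nuclei (open), for each of the 7 libraries ("index" means preindexed). Lars2, Gm15564, Cd44 and Fat2 are higher in the 4 libraries without preindex in both sets of nuclei, and Cpa6 separates frozen from fresh in the Adarb2 nuclei.

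The primer calls were 0.259% of all genes tested, and the counts over interneuron lists are read against that share. Of the GABA neuron, CGE, Vip, Ndnf and Lamp5, Sncg and Cck, and MGE lists, 0 of the 8, 9, 8, 7, 5 and 10 genes tested passed in edgeR, with list medians between -0.25 and 0.14 against -0.017 over all genes. No gene of the glial lists passed by primer in edgeR. The list medians were -1.15 for 6 oligodendrocyte genes, -0.98 for 3 astrocyte genes, -1.29 for 3 microglia genes and 0.56 for 4 OPC genes, and -1.30 for 3 endothelial genes. The sum of the oligodendrocyte genes in Adarb2 nuclei was 2.20, 2.12, 0.251 and 1.58 per 10000 in the non-preindexed and 1.47, 0.786 and 0.288 in the preindexed libraries. The part of these lists in the primer calls was not tested. Kidney tubule genes, which summed to 9.14 and 8.60 per 10000 in the nuclei of neither rule from the 2 frozen preindexed libraries and to at most 0.185 in the rest, were at 0.109 and 0.133 in the Adarb2 nuclei of those libraries. The 10-gene immediate early list summed to 1.76 per 10000 in Adarb2 nuclei, with Homer1 at 1.42. It summed to 1.19 in Lhx6 nuclei and 3.70 in the nuclei of neither rule, and none of its 4 tested genes passed by storage or primer in edgeR.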

How the data were processed

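The deposited values were UFI counts per gene and nucleus. Per the labels and methods, the authors trimmed reads with Cutadapt, chose cell barcodes with UMI-tools at a manual cutoff, aligned with STAR keeping unique reads, assigned reads to whole genes with featureCounts and counted UFIs with UMI-tools. The versions used for the tissue libraries are not given in the sources used here. The study describes UFI quantification as specific for strand, but the strand setting of the gene assignment is not given, so values of overlapping and antisense genes are uncertain. The builds named are GRCh38, GRCm38 and mm10.

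Adarb2 nuclei, subsets and Lhx6 nuclei were chosen by UFIs per 10000, and doublets were not removed. Members, lists and tests were chosen with earlier results of these data known. Nuclei were clustered with Scanpy 1.11.5 by the Leiden method of igraph (2000 variable genes, 20 components, 10 neighbours, resolution 0.6). A cluster was named when 3 or more and at least 0.5 of a list's markers were 2-fold higher than in the rest and 1 was among its 10 leading genes, unless leading genes went against it. Counts were summed per library and class and tested with edgeR 4.0.16 quasi-likelihood fits (R 4.3.3) after its filter on low counts, with TMM scaling and Benjamini-Hochberg adjustment at 0.05. SE was derived from the F statistic. Storage and primer were terms in 1 fit. The subset and Lhx6 fits had library as a term, which pairs the classes of 1 library, and subsets needed 3 nuclei. Shares were compared by two-sided exact permutation in SciPy 1.17.1, with 95% Clopper-Pearson intervals. Depth per library was 8605214 to 42439731 UFIs.

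Genes named per comparison were the 8 with the largest change in each direction among those past the threshold, at a mean of 50 CPM or more and without overlap between groups (in subset and Lhx6 fits, changed the same way in every library), rule genes left out, together with list genes. Cbln3 and Fat2, which had a mean below 50 CPM, were named outside this rule, as were Cpa6, Gm24265 and Gabra6. Alternatives were DESeq2 1.42.0, upper-quartile scaling, no filter, the replicate block, other rules for nuclei and subsets, thinning and leaving out each library. In simulated data with 200 changed genes, a log2 change of 1 was recovered for 195 genes by storage, 189 by primer, 138 between subsets and 145 against Lhx6 nuclei. In the same order 7.14, 8.25, 4.17 and 5.23% of the calls were false. The changed genes were drawn from those at a mean of 50 CPM or more, and no shift in cell make-up was simulated. Recovery of genes at lower levels was therefore not measured. Some genes are not reported here.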

Additional observations from a re-analysis of the deposited data

Results flagged for a closer look

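In 83 groups of 4 to 7 libraries checked for a library far from the rest, 9 had one, where chance gives about 1 in 20. Of the libraries without preindex, the first frozen one had the lowest share of Adarb2 nuclei, 3.714% against 6.154 to 6.50%, and the second fresh one had the lowest Vip share, 11.25% against 15.38% or more. That fresh library also had the highest Lamp5 in the Vip subset, at 22.7 CPM, where the next was 6.239.

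Among Lhx6 nuclei, single libraries stood apart for 6 genes. The first frozen library without preindex, with 2 Lhx6 nuclei, had the lowest Sox6, at 567.8 CPM. The highest values were 31.96 CPM for Prox1, 56.78 for Sema5b, 195.9 for Egfr, 283.9 for Pbx3 and 926.4 for Cemip. The Egfr value came from the first frozen preindexed library, with 13 Lhx6 nuclei, and the others from libraries with 2 to 6.

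The storage difference itself differed between primers in an interaction fit (edgeR) for 4 genes at a mean of 50 CPM or more, on the log2 scale. It was -3.073 for Gm26561, -2.802 for Zfpm2, a zinc finger cofactor, -3.014 for mt-Tv, a mitochondrial tRNA, and 2.268 for n-R5-8s1, a ribosomal RNA. Zfpm2 was at 363 and 472 CPM in frozen and 125 and 151 in fresh libraries without preindex, and at 153 and 143 in frozen and 337 in fresh preindexed libraries. Each of these differences rests on the single fresh preindexed library.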

How the results depend on the processing

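The 2 genes called by storage became 9 with DESeq2, 7 with upper-quartile scaling, 110 with no filter on low counts, 1 without primer as a term, 9 with the looser and 1 with the stricter rule, 7 without 45 nuclei of mixed identity, and 0 with Adarb2 at 50 or more (edgeR, 426 at an unadjusted p below 0.05). Leaving out 1 library gave 1 to 10, 10 without the second fresh library without preindex. The 28 by primer became 56 with DESeq2 (33 higher in preindexed), 258 with no filter (149 higher), 123 with the looser rule (51 higher) and 17 with Adarb2 at 50 or more, and 6 to 44 with 1 library left out, 6 without the second frozen library without preindex. Replicate numbers do not pair the samples (correlations of deviations 0.0542, 0.0185 and 0.0225), and the replicate block gave 5 by storage and 35 by primer (16 higher). The 508 genes between subsets became 767 with no filter, 501 with no replicate block and 406 to 508 with 1 library left out. The 297 against Lhx6 nuclei became 728 with no filter (599 higher), 83 with Lhx6 at 4 or more (8 nuclei), 1411 at 1 or more (272 nuclei), 443 with no replicate block and 172 to 366 with 1 library left out. At Lhx6 of 4 or more, Lypd6b and Lypd6 reversed, at 0.9609 and 0.5599. The causes were not tested.

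By primer, the difference in the share of Adarb2 nuclei reversed to 0.2235 points with Adarb2 at 50 or more and ran from -0.9093 to 0.0193 with 1 library left out. By storage, the Vip share difference reversed to 1.399 points for subsets at 2 per 10000 and ran from -2.44 to 1.292, and by primer from -0.1516 to 2.261. Named genes kept direction and call in 271 of 271 alternatives between subsets, 275 of 284 against Lhx6 nuclei and 164 of 208 by primer. Depth limits the subset and Lhx6 sums, with 2 to 33 nuclei per library.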
